A study of Mus musculus with 8 samples.

Results

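The broad H3K36me3 domains of wild-type bone marrow stromal cells are the long, unbroken peaks of this histone mark that both wild-type libraries held. A domain was a peak of at least 5000 bp in the first wild-type library that shared at least 1 bp with a peak of at least 5000 bp in the second. By this rule 780 of 242745 peaks of the first wild-type library (0.321%) were domains. The domains were chosen by their widths in both wild-type lists, so the wild-type values below describe the choice and carry no test, while the knockout lists had no part in it. The cells were stromal cells from the marrow of C57BL/6J mice with floxed Setd2, at passage 2. The knockout group (KO) received a lentivirus for Cre recombinase, which cuts out the floxed part of the gene, and the wild-type control group (WT) a lentivirus for GFP. Puromycin (2 µg/ml, 4 days) selected the infected cells of both groups, and the share of KO cells that lost Setd2 is not given in the labels. Chromatin immunoprecipitation and sequencing (ChIP-seq) gave 2 H3K36me3 libraries per genotype, beside 1 Input library (chromatin without antibody) and 1 IgG library (a non-specific antibody) for each.

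H3K36me3 is the trimethylated form of a lysine in the tail of histone H3. Setd2, the enzyme that places it in mammals, travels with elongating RNA polymerase II, so the mark lies over the bodies of transcribed genes and builds up toward their 3′ ends, while promoters lack it. Proteins that read it act in the choice of splice sites, in DNA repair, and in keeping transcription from starting inside genes.

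The sequences shown first are of microRNAs (miRNAs) that lie inside domains, and then of promoters of domain genes, which seldom held a peak. Of 1005 annotated miRNA hairpins, 26 (2.59%) lay wholly inside a domain, while the domains made up 0.211% of the genome. The mature miRNAs below were chosen after their values were seen. They are printed 5′ to 3′ from RefSeq (GRCm38.p6) with the seed, bases 2 to 8 that pair with target RNAs, in capitals. The first 3 come from the cluster of Mir23b, Mir27b and Mir24-1, at chr13:63300492-63300512, chr13:63300760-63300780 and chr13:63301251-63301272 on the plus strand. They lay in a domain of 5604 bp on Aopep, an aminopeptidase gene, where neither KO library had a peak base. The last 2, in domains on Parp1, a DNA-damage sensor, and Ankrd52, a regulatory subunit of protein phosphatase 6, share the seed CCUGGGG and lie at chr1:180587206-180587227 and chr10:128382843-128382866, plus strand.
mmu-miR-23b-5p: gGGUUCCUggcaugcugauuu
mmu-miR-27b-3p: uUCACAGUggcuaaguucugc
mmu-miR-24-3p: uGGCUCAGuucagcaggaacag
mmu-miR-6904-5p: uCCUGGGGuuagaguugagugg
mmu-miR-6914-5p: uCCUGGGGuggugguggccacaga
Of the 26 hairpins, 25 (96.2%) had no peak base in either KO library, close to the 91.5% of all 1005 hairpins, and in WT all lay under peaks, which the choice fixes for replicate 1. The exception was Mir7016, in a domain on Tmem39b, which a peak of KO replicate 2 covered in full and KO replicate 1 did not touch.

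Dync1h1, the heavy chain of the dynein motor, is one of the genes with the most domain bases. Zfp180 is a zinc finger gene whose domain had high coverage in KO. The promoters of both genes are shown. Each is the 300-bp window around the gene start from RefSeq (GRCm38.p6), chr12:110601145-110601444 and chr7:24081647-24081946, both on the plus strand. CG dinucleotides are in capitals, 30 in the first and 12 in the second.
Dync1h1: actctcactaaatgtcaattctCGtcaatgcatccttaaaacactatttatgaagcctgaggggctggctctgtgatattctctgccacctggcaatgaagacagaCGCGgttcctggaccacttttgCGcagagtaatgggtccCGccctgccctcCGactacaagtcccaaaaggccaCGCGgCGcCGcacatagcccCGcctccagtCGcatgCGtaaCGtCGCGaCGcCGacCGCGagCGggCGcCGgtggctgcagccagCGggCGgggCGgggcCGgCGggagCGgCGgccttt
Zfp180: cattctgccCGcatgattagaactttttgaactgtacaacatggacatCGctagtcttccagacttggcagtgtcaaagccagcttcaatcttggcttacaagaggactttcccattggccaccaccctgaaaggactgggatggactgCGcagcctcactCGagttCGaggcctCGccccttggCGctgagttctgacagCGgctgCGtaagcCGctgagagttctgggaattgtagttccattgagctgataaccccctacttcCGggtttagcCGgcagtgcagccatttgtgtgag
Neither window held a peak base in any of the 4 libraries. A promoter sequence was at hand for 555 of the 665 protein-coding genes with a domain. Of these, 0 in KO replicate 1, 1 in KO replicate 2 and 4 in each WT library had a peak base, against 1.93%, 2.29%, 2.68% and 2.65% of 17492 promoters of protein-coding genes in the same libraries. Their promoters were rich in CG, with a median of 23 CG dinucleotides against 13 in all promoters, and 91.4% against 57.2% held at least 10. The 32 Zfp genes with a domain and a promoter sequence had a median of 13. The letters TATAAA stood on either strand in 5.41% of the promoters of domain genes and 13.3% of all.

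Facts of the whole series bear on these values as follows. Every library has an authors' peak list made with the Input of its genotype as control and another made with the IgG. Values come from the Input lists except where IgG is mentioned. These lists held 122589 and 159459 peaks in KO replicates 1 and 2, against 242745 and 246258 peaks in WT replicates 1 and 2. Only 9 and 6 of the KO peaks were at least 5000 bp wide, against 2239 and 1696 of the WT peaks. Read counts are not part of the lists: the depth behind a peak is unknown, and an empty region may still carry signal. No label says that both libraries of a genotype were grown apart, so the spread between them may be technical. Markers of cell types gave a mixed picture. Coverage, the percent of a span under peaks, averaged 2.63% and 3.0% in KO over 14 stromal genes, against 50.3% and 46.6% in WT. Thy1, a marker of stromal and other cells, and Cd3e, of T cells, had no WT peak base, and the stromal marker Lepr had 3.33% and 0.812% in WT. The 10 haematopoietic genes averaged 1.85% and 6.12% in KO and 26.1% and 33.4% in WT. Among them Lyz2 had 74.9% and 87.6% in WT, and Csf1r 45.1% and 43.5%. The markers thus do not settle how many haematopoietic cells the cultures held. The part of such cells in the domains was not tested. Setd2 itself held no domain, its coverage was 0.690% and 1.70% in KO and 66.4% and 60.5% in WT, and its widest WT peaks spanned 4584 and 4493 bp. Peaks over Setd2 do not check its deletion.

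The domains were mostly between 5 and 10 kb wide. Their width in WT replicate 1 had a median of 6616.5 bp, the middle 50% lay between 5663.5 and 8090.5 bp, and the widest spanned 39801 bp. The overlapping peaks of WT replicate 2 had a median of 6520 bp. Of the 780, 274 (35.1%) were under 6000 bp, 72 (9.23%) were at least 10000 bp and 4 at least 20000 bp. In 735 domains 1 broad peak of WT replicate 2 overlapped, and in 45 there were 2. At least 50% of the domain was shared with such peaks in 639 domains (81.9%), and less than 10% in 20. Across the 780 domains the widths in both WT libraries were related with a Pearson r of 0.456 and a Spearman rho of 0.221. The wider peak was taken where 2 of WT replicate 2 overlapped. The rule cut both widths at 5000 bp, so these values do not measure how well the libraries agree. Both lists were called against the same Input library. The authors' own score of a domain, whose scale is not stated, had a median of 659 and ranged between 46.15 and 2438.77.

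Few domains stood alone. WT replicate 1 peaks within 1 kb of each other were joined into tracts. Over the 780 domains, the tract that held the domain had a median length of 22189 bp and reached 104041 bp. A tract with more than 1 domain counted once for each of them. Told apart by chromosome and length, there were 677 tracts, and 12 domains (1.54%) had no other peak in their tract. The flanks, 5 kb to each side, were covered to 4.06% and 5.07% in KO and to 68.2% and 69.7% in WT. Most domains were thus part of a longer marked tract.

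At the width threshold, just inside lay domains of 5000 bp on Ccdc93, a gene of endosomal recycling, 5002 bp on Nop14, which serves the making of the small ribosomal subunit, and 5005 bp on Trrap. Their KO coverage in replicates 1 and 2 was 21.3% and 0% for Ccdc93, 0% and 21.1% for Nop14, and 0% and 11.9% for Trrap. Just outside lay peaks of 4998 bp on Gemin5, which helps to assemble spliceosomal particles, 4998 bp on Nom1 and 4992 bp on Tln1, the gene of the integrin linker talin. These had KO coverage of 19.3% and 0% for Gemin5, 0% and 7.06% for Nom1, and 0% in both for Tln1.

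The domains lay on protein-coding genes. Of the 780, 767 (98.3%) touched one, 579 (74.2%) lay wholly inside a single gene, and 82 (10.5%) touched more than 1. Protein-coding spans held 93.9% of domain bases, against 85.5% and 85.1% of the bases under all WT peaks and 38.2% of the genome. All peaks of the KO lists held 39.4% and 39.2% of their bases there. The 767 domains marked 665 genes: 589 with 1 domain, 56 with 2 and 20 with 3 or more. Among protein-coding genes of at least 5000 bp, 662 of 16853 (3.93%) had one. The share was highest, 5.69%, in genes of 20 to 50 kb, and it was 1.07% in genes of 5 to 10 kb and 1.11% in genes of 200 kb or more. Domain genes had a median length of 29.2 kb, against 25.8 kb for all genes of at least 5000 bp. Domains took up a median of 24.6% of their gene, and at least 50% in 116 genes.

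The genes with the most domain bases were long genes with general functions in the cell. Rnf213, which encodes a giant ubiquitin ligase, held 6 domains with 53.4 kb, or 54.7% of its span. Its domain bases were covered to 1.98% and 0% in KO, against 100% and 98.4% in WT. Trrap, the scaffold of histone acetyltransferase complexes, also held 6, with 49.7 kb. There KO coverage was 6.86% and 6.13%. Next came Myh9 (non-muscle myosin heavy chain) with 29.4 kb, Lrp1 (an endocytic receptor) with 28.0 kb, Dync1h1 with 28.0 kb and Ubr4 (a ubiquitin ligase) with 26.3 kb. Tmem181a with 25.6 kb, Ap3d1 (a subunit of the AP-3 adaptor of endosomes) with 25.5 kb and Wdr1 (an actin disassembly factor) with 24.6 kb followed. Of these 9 genes, Tmem181a had the highest KO coverage of its domain bases, 15.1% and 23.3%, and the others had at most 6.86% in either KO library. Myh9 had 3.53% and 2.01%, Dync1h1 1.36% and 6.73%, and Ubr4 0% and 2.61%. In Lrp1 neither KO library had a peak base in the domains.

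Measured by share of the gene, Sec24c, a cargo-binding part of the COPII coat, came first among genes of at least 20 kb. Domains took up 87.4% of it, no base of the gene was under a peak in KO, and its coverage was 90.8% and 82.0% in WT. Safb2, a nuclear scaffold factor, followed with 84.1%, Ap3d1 with 72.1%, the lysosomal transporter gene Mfsd1 with 70.6% and the autophagy gene Atg2a with 68.6%. In these 5 genes between 0% and 6.65% of domain bases were covered in either KO library.

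By function, the share of genes with a domain was highest for splicing, translation and cytoskeletal genes, where most members still had none. The lists were written with earlier results of these data known, so their shares are descriptions, set beside the 3.93% of all protein-coding genes of at least 5000 bp. Of 40 core splicing factors of that length 14 (35.0%) held a domain. The share was 8 of 24 for translation factors (33.3%), 10 of 30 for cytoskeletal motors and linkers (33.3%), 4 of 13 for PIKK and mTOR kinases and partners (30.8%), 8 of 30 for giant ubiquitin ligases (26.7%), 7 of 30 for membrane traffic (23.3%) and 12 of 52 for DEAD and DEAH helicases (23.1%). Chromatin remodellers had 6 of 30 (20%), nuclear pore genes 5 of 30 (16.7%), the proteasome 6 of 39 (15.4%), RNA polymerase II elongation factors 5 of 33 (15.2%), H3K36 writers, erasers and readers 3 of 31 (9.68%), ribosomal protein genes 1 of 14 (7.14%) and solute carriers 6 of 321 (1.87%). None of 14 stromal markers, 30 collagen and matrix genes or 10 osteoblast genes held one, and in lists this short 0 is close to the share of all genes. Among the stromal markers, Fn1 had a peak of 5134 bp in WT replicate 1, and Pdgfrb and Pdgfra had peaks of 5711 and 5021 bp in WT replicate 2, none of them broad in both. The collagen and matrix genes were nevertheless marked, with a mean coverage of 1.82% and 4.07% in KO and 50.0% and 47.2% in WT, as were the stromal markers, with the means given above. The other lists without a domain were 7 haematopoietic, 5 endothelial and 5 neuronal genes and 207 olfactory and vomeronasal receptor genes. Of the haematopoietic genes, Csf1r had a peak of 6678 bp in WT replicate 1 and at most 3220 bp in WT replicate 2. Of 10 adipocyte genes 1 held a domain, Fasn, the fatty acid synthase gene. The lists with the highest shares were also more covered in WT than all genes. Mean WT coverage was 75.6% and 72.8% for splicing, 70.3% and 69.4% for translation and 53.6% and 51.4% for cytoskeletal genes. Over all protein-coding genes, of any length, it was 26.3% and 25.5%. Shares among genes of like WT coverage were not compared.

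**Figure D1:**
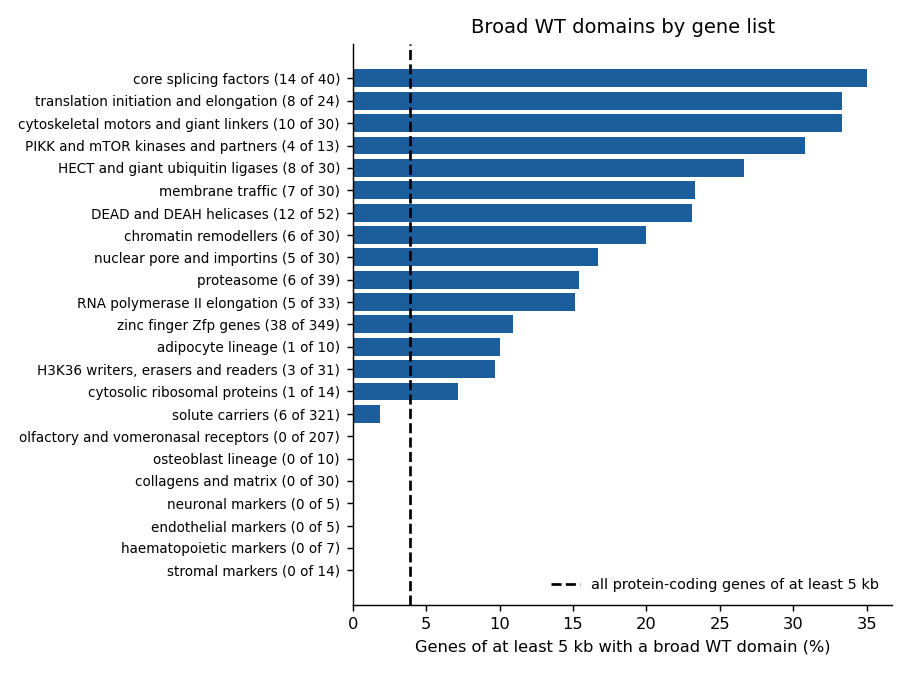
Percent of protein-coding genes of at least 5 kb that hold a broad WT domain, for each gene list, with the number of genes in parentheses; the dashed line is the share over all such genes, 3.93%. Splicing, translation and cytoskeletal genes reach 33.3% to 35.0%, and the stromal, matrix and osteoblast lists are at 0.

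The 2 members of each list with the most domain bases show what KO libraries held there, given as replicate 1 and then replicate 2. Among splicing genes, Snrnp200, a helicase of the spliceosome, had 10.8% and 16.9% of its domain bases under KO peaks, and Prpf31, a factor of the U4/U6 particle, had 4.93% and 0%. Of the elongation genes, Ccnk (the cyclin of Cdk12) had none in either KO library, and Supt5 (a subunit of the pausing and elongation factor DSIF) had 0% and 7.55%. Kdm4a, a demethylase of H3K9 and H3K36, had 0% and 10.2%, and Brd1, a scaffold of acetyltransferase complexes, had none. All of these genes thus had most of their domain bases free of KO peaks.

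Further lists gave these values. Smarca4, the ATPase of the BAF remodelling complex, had 7.84% and 5.78%. Tsc1, an inhibitor of mTORC1 signalling, had 0% and 11.2%. The nuclear pore gene Nup214 had 6.42% and 6.41%, and Nup50 had 6.44% and 14.4%. In translation, Eif4g2 had no KO peak base, whereas Gcn1, an activator of the kinase Gcn2 on stalled ribosomes, had 15.9% and 14.8%. Of the proteasome list, Psmd5 had 0% and 7.99%, and Psmd2, a subunit of the regulatory particle, had none. Slc12a7, a potassium chloride cotransporter gene, had 0% and 6.14%, and Slc2a1, the glucose transporter GLUT1, had none. Of the helicase genes, Ddx31 had 0% and 13.3%, and Dhx37 had 4.36% and 5.85%. Fasn had 0% and 10.4%, and the ribosomal protein gene Rps15a had none.

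Along genes, the domains sat toward the 3′ end. Strand was known for 645 domains. Their centres lay at a median of 72.5% of the way along the gene, with the middle 50% between 54.0% and 87.2%. With each gene cut into 3 equal parts, 51 centres (7.91%) fell in the first part, 226 (35.0%) in the middle and 368 (57.1%) in the last. Domains began a median of 16.2 kb after the gene start and ended a median of 4.20 kb before the gene end. A domain covered the gene start in 1 case and reached or passed the gene end in 166 (25.7%). The mark as a whole followed the same slope in these genes. In 555 of them with known strand, coverage in the first 5% of the span averaged 0.413% and 0.440% in KO and 6.16% and 5.84% in WT. Between 90% and 95% of the span it averaged 5.92% and 7.19% in KO and 91.5% and 89.9% in WT. Over 13412 genes of at least 5 kb with known strand, that bin averaged 3.58% and 4.39% in KO and 43.6% and 42.3% in WT, so all genes showed the slope at a lower level.

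**Figure D2:**
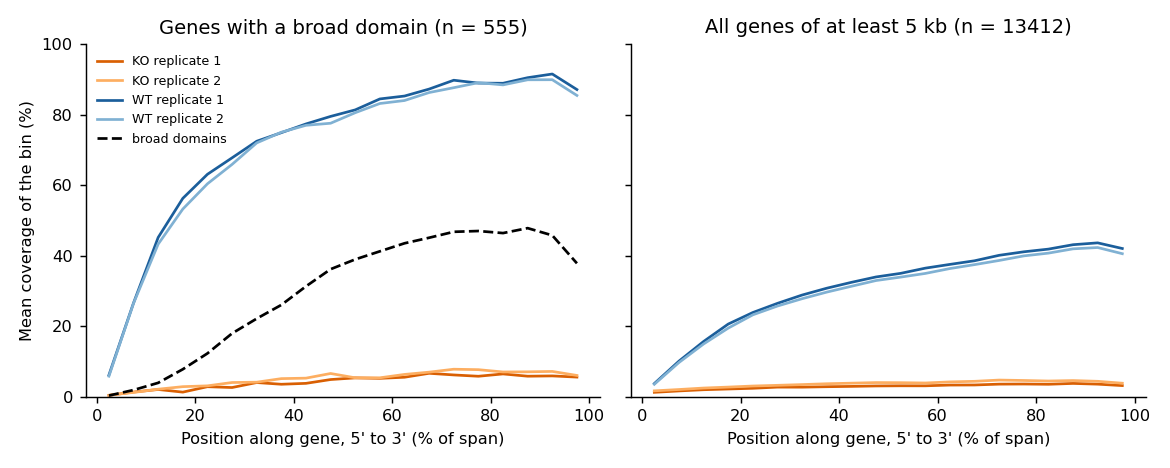
Mean coverage (%) by peaks of each library in 20 equal bins from the gene start to the gene end, for 555 genes with a broad domain (left) and 13412 genes of at least 5 kb (right); the dashed line is the mean share of the bin inside domains. WT coverage of domain genes climbs to 91.5%, and KO coverage stays under 8% in every bin.

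In KO the domains were mostly empty, but they held more peak bases than the rest of the genome. KO peaks covered 7.57% and 8.74% of domain bases (mean 8.16% ± 0.829, SD, n = 2), against 100% and 95.5% in WT. Outside the domains KO peaks covered 2.64% and 3.48% of the genome, and WT peaks 8.78% and 8.52%. Within KO, domains were therefore covered 2.87 and 2.51 times as much as the rest of the genome (geometric mean 2.68, SD of the ratios 0.250, n = 2). Both libraries showed this direction, and the exact two-sided sign-flip permutation p was 0.5, the smallest that 2 libraries allow. Against the rest of protein-coding spans the ratios were 2.79 and 2.46. Over the spans of the domain genes themselves, KO coverage was 7.07% and 8.45% inside the domains and 3.45% and 4.17% outside them, and WT coverage was 100% and 95.9% inside and 56.4% and 55.7% outside.

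**Figure D3:**
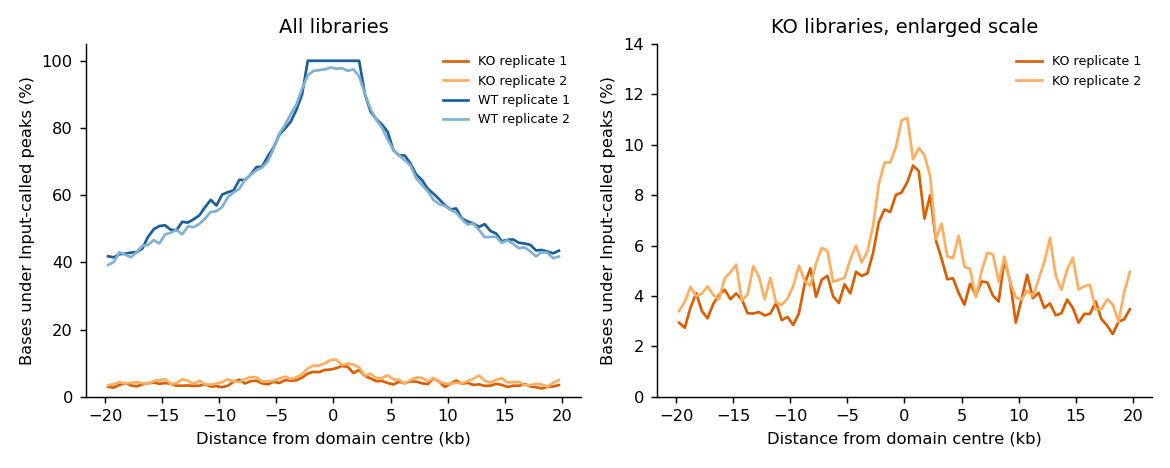
Mean percent of bases under Input-called peaks in 500-bp bins within 20 kb of the centres of the 780 domains, for each library (left) and for the KO libraries on an enlarged scale (right). WT replicate 1 is at 100% at the centre by the rule, and the KO libraries reach 8.52% and 11.1% in the bin just right of the centre, against 2.94% and 3.40% in the leftmost bin.

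Single domains differed widely in KO. No base was under a peak of either KO library in 232 domains (29.7%), 246 (31.5%) had peaks of both and 302 of 1 only. The per-domain median was 0% in KO replicate 1 and 5.06% in KO replicate 2, and the highest values were 84.7% and 82.7%. Both libraries were under 10% in 448 domains (57.4%), while both were at or above 25% in 33 (4.23%) and at or above 50% in 7. Across the 780 domains the KO libraries, which share an Input library, were related with a Pearson r of 0.634 and a Spearman rho of 0.374. KO coverage and the WT width of a domain had a Spearman rho of -0.0364.

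A wide region can hold a KO peak more often by its length: of 155549 WT replicate 1 regions of any width that WT replicate 2 shared, 77.1% had no KO base. Equal lengths were therefore compared, with the middle 5000 bp of each domain beside consecutive 5000-bp tiles. A KO base in either library was present in 501 of 780 middles (64.2%), against 39.7% of genome tiles and 41.7% of tiles inside protein-coding genes. Peaks of both KO libraries were present in 194 (24.9%), against 8.86% of genome tiles and 9.08% of protein-coding tiles. At least 25% coverage in both was reached in 39 (5.00%), against 0.203% of genome tiles and 0.215% of protein-coding tiles. Each share of the middles was above that of the tiles.

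The KO peaks in the domains were short. KO replicates 1 and 2 had 657 and 754 peaks in domains, with median widths of 584 and 591 bp, against 565 and 568 bp elsewhere in the genome. Peaks of at least 2000 bp made up 1.22% and 1.46% of those in domains and 0.0681% and 0.0624% of those elsewhere. The authors' scores were not higher: their medians were 42.47 and 33.57 in domains and 44.34 and 35.18 elsewhere, each within its own list. The widest KO peaks in domains spanned 7074 and 5250 bp.

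The excess of KO coverage was larger in the domains than in narrower WT regions. WT regions found in both libraries had KO coverage of 5.11% and 6.34% where WT replicate 1 was under 1 kb wide, 4.53% and 5.70% at 1 to 2 kb and 4.81% and 6.16% at 2 to 5 kb. Peaks of at least 5 kb in WT replicate 1 only, without an overlapping peak that wide in WT replicate 2, had 5.59% and 6.06%. Nearly all of them (99.8%) still held a narrower WT replicate 2 peak or part of one. The domains had 7.57% and 8.74%. The domains thus stood above every class in both KO libraries, while the classes under 5 kb did not follow their width. Against IgG, KO coverage followed the width: 3.10% and 3.95% under 1 kb, 3.15% and 3.95% at 1 to 2 kb, 3.37% and 4.41% at 2 to 5 kb, 4.09% and 4.57% for the peaks of at least 5 kb in WT replicate 1 only, and 5.71% and 6.47% in the domains. In the central 200 bp, a fixed length for all classes, the domains had 8.07% and 11.1%, against at most 6.65% and 8.09% in the other classes. Without the 40 domains on Zfp genes, the remaining domains had 6.93% on average over their whole width. The other classes kept their regions on Zfp genes, so the part of Zfp genes in the excess was not tested.

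**Figure D4:**
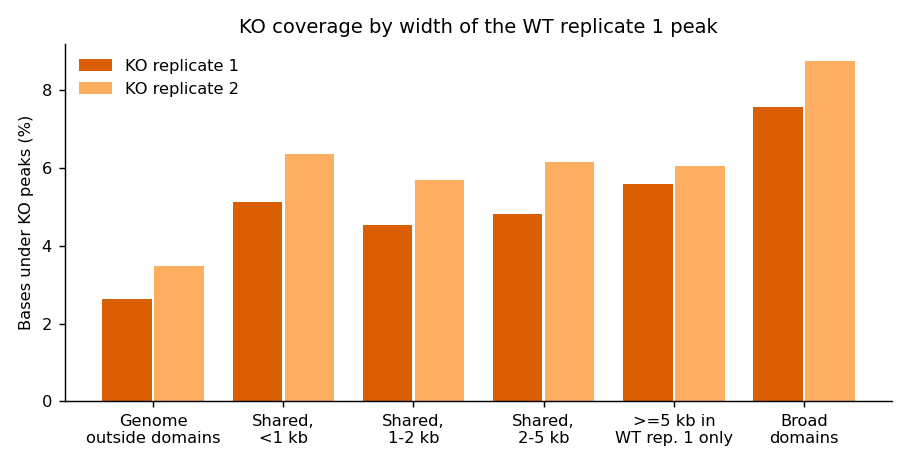
Percent of bases under peaks of KO replicates 1 and 2, for the genome outside the domains, for WT replicate 1 regions shared with WT replicate 2 in 3 width classes, for peaks of at least 5 kb in WT replicate 1 only, and for the broad domains. Peaks of at least 5 kb in WT replicate 1 only are those without an overlapping peak that wide in WT replicate 2. Domains are highest in both KO libraries, at 7.57% and 8.74%.

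The lists called against IgG gave lower coverage. KO peaks against IgG covered 1.75% and 2.26% of the genome outside the domains, against the 5.71% and 6.47% given above inside them. WT peaks against IgG covered 84.4% and 81.1% of the domains. In WT replicate 1 a domain was either present in the IgG list with the same ends (665) or absent from it altogether (115, or 14.7%). Of all WT replicate 1 peaks 21.3% had no base under an IgG-called peak, and of its peaks of at least 5000 bp 15%. In WT replicate 2, 36 domains (4.62%) had none, beside 19.5% of all its peaks and 15% of its broad ones. The domains have the ends of WT replicate 1, whereas those peaks were taken at their own ends, so the shares are not alike in measure. In 17 domains neither WT library had a peak against IgG.

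Most genes whose symbol is Zfp and digits alone encode DNA-binding proteins with arrays of C2H2 zinc fingers. The domains on these genes had far more coverage in KO than the others. They were 40 domains on 38 genes, and KO peaks covered 27.9% and 33.0% of them (mean 30.4% ± 3.62, SD, n = 2). On 627 other protein-coding genes, 727 domains were covered to 6.15% and 7.14% (mean 6.64% ± 0.704, SD, n = 2). The ratio was 4.54 and 4.62, above 1 in both libraries, with an exact two-sided sign-flip permutation p of 0.5, the smallest possible. This comparison was added after the data were seen. Symbols with a letter after the digits were counted among the others: the domains of Zfp780b had 8.86% and 27.0% in KO, of Zfp518b 17.1% and 7.64%, and of Zfp874a 23.9% and 10.6%. With these 3 as Zfp genes the ratio was 4.46. Zinc finger genes under other kinds of symbol also stayed among the others. Of their domain bases, KO peaks covered 34.4% and 27.1% in Zkscan8, 29.6% and 23.6% in Rbak and 0% in both libraries in Znfx1. These examples were chosen after their values were seen, and the part of such genes in the ratio was not tested. WT coverage did not separate Zfp domains, at 100% and 94.2%, from the others, at 100% and 95.6%, as the rule requires for WT replicate 1. Against IgG the KO values were 25.4% and 29.2% in Zfp domains and 4.21% and 4.89% in the others.

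Nearly all Zfp domains held a KO peak. Only 1 of 40 (2.50%) had no KO base, against 230 of 727 other domains (31.6%), and 16 (40%) had at least 25% in both KO libraries, against 13 (1.79%). Zfp369, with the most domain bases of these genes, had 27.2% and 38.1% of them under KO peaks, and Zfp810 had 24.9% and 54.1%. Of the 10 domains with the highest KO coverage in all, 5 lay on these genes: the domain on Zfp2 with 58.8% and 64.1%, a domain on the overlapping spans of Zfp978 and Zfp991 with 61.5% and 60.5%, Zfp180 with 62.1% and 52.9%, Zfp709 with 60% and 50.1%, and the wider of the domains on Zfp810 with 36.1% and 73.9%. By gene, Zfp984 had the highest share of its domain bases under KO peaks, 74.9% and 69.3%, although its whole domain, which runs past the gene span, had 53.9% and 45.8%. Domains at the low end lay on Zfp655, with 0% in both, and on Zfp160 and Zfp646, with 0% in KO replicate 1 and 10.5% (Zfp160) and 9.71% (Zfp646) in KO replicate 2. Zfp984 and these 3 were chosen after their values were seen. Zfp genes share sequence among themselves, so their values are less certain, and how reads were placed between them was not tested.

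The Zfp domains lay toward the 3′ end as did the others, with 63.6% of 33 centres in the last of 3 equal parts of the gene against 56.7% of 612. Over whole gene spans, the 38 Zfp genes with a domain had 17.7% and 20% coverage in KO and 43.0% and 42.8% in WT. The 329 Zfp genes without one had 5.83% and 7.28% in KO and 35.3% and 34.7% in WT. The 627 other genes with a domain had 3.36% and 4.13% in KO and 65.4% and 64.0% in WT. These values pool bases, so long genes weigh most. The median gene had 15.6% and 18.4% in KO and 74.0% and 72.6% in WT among Zfp genes with a domain, and 2.48% and 3.44% in KO and 75.9% and 74.5% in WT among the 627 others. Among genes with a domain, the median Zfp gene was thus above the median other gene in KO, and their WT medians were close. Both groups were chosen for a broad WT domain, so the likeness in WT follows in part from the choice. The median of the 329 Zfp genes without a domain was 4.52% and 6.65% in KO and 48.9% and 48.1% in WT.

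**Figure D5:**
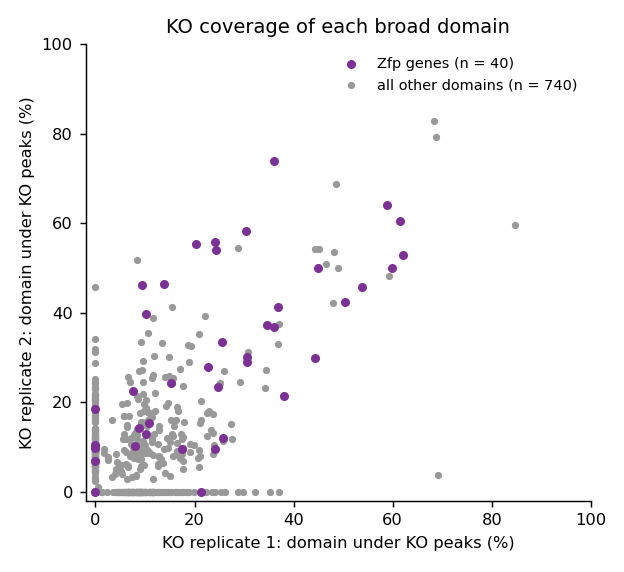
KO coverage of each of the 780 domains (%), replicate 1 on the horizontal and replicate 2 on the vertical axis; the 40 domains on Zfp genes are purple and the 740 others grey. Of the Zfp domains 16 have at least 25% in both libraries, and many of the others lie on an axis, with peaks of 1 KO library only.

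Of the 10 domains with the highest KO coverage, the other 5 were not on genes whose symbol is Zfp and digits alone. At the top stood a domain at chr17:17035556-17042603 on Gm51425, with 68.4% and 82.7% in KO. The domain at chr4:145824074-145830632, on no protein-coding gene and over the pseudogene Znf41-ps, followed with 68.7% and 79.3%. A domain of 11953 bp at chr1:88259017-88270969 on Hjurp, the chaperone of the centromeric histone CENP-A, had 84.7% and 59.5% in KO and 98.5% in WT replicate 2. It was unlike the others in the IgG lists, where KO had 0% in both libraries and WT 100% and 98.5%. The remaining 2 were Gm38396 with 48.5% and 68.8%, and a domain over the pseudogene Gm17655 with 59.2% and 48.3%.

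The widest domains were mixed in kind. The widest, 39801 bp at chr17:6431118-6470918, had only 23.6% of its bases on a protein-coding gene, Dynlt1b, a dynein light chain gene. Its KO coverage was 36.9% and 32.9%, and it was absent from the IgG list of WT replicate 1 but covered to 97.8% in that of WT replicate 2. The second, 30190 bp at chr17:6282670-6312859 on Tmem181a and Dynlt1a, had 14.6% and 19.8% in KO and overlapped a WT replicate 2 peak of only 9403 bp. It too was absent from the IgG list of WT replicate 1, and it was covered to 95.9% in that of WT replicate 2. Like-named copies (Dynlt1a, Dynlt1b) lie there, so its values are less certain, and how reads were placed between the copies was not tested. The third, 24162 bp at chr11:3124754-3148915 on Sfi1, a centrosomal protein gene, had no KO peak base. On Dync1h1 the domain of 21702 bp at chr12:110620277-110641978 had 1.76% and 8.68% in KO. It began 18.9 kb after the gene start and ended 25 kb before the gene end.

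Further down the widest 10, Trrap (18786 bp) had 2.47% and 7.11% in KO, Ogdh, an enzyme gene of the citric acid cycle (15373 bp), 15.1% and 3.57%, and Wdr1 (15149 bp) none. A further pair lay over pseudogenes of chromosome 8. One of 17424 bp at chr8:20566760-20584183 had 5.14% and 4.56% in KO. Against IgG it had 16.3% and 24.0% in KO and no peak base in either WT list. One of 16849 bp at chr8:20135736-20152584 had 20.9% and 5.47%.

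These were among 13 domains on no protein-coding gene, 5 of them on chromosome 8. Of the 13, 10 lay over annotated pseudogenes, such as Oas1b, which RefSeq lists as a transcribed pseudogene in this strain, and 2 over long non-coding RNA genes, E430024I08Rik and Gm33272. The other, at chr6:124953035-124958242, lay 202 bp from Cops7a, a gene of the COP9 signalosome, and had 9.16% and 33.4% in KO.

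The X chromosome held none of the 780 domains. It holds 6.32% of the genome and 4.41% of protein-coding genes, and 2.45% of WT replicate 1 peaks lay there. WT replicate 1 peaks covered 2.40% of X. Only 2 and 1 X peaks of the WT lists were at least 5000 bp wide. Y held 1 domain, over Gm33272. On autosomes the density was between 1.60 and 5.59 domains per 10 Mb, highest on chromosome 17 and lowest on chromosome 14. Chromosomes 2, 5 and 11 held the most, with 87, 83 and 66.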

How the data were processed

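H3K36me3 ChIP-seq was measured in 4 libraries, 2 per genotype, with groups and replicate numbers from the titles. Per the submitters' processing notes, Bowtie2 was the aligner and GRCm38 the genome. The authors deposited 8 peak lists, 2 per library: per the labels, 1 used Input and 1 used IgG chromatin of that genotype as control. Peak names start with MACS, whose version and settings were not given in the sources used here. Starts and ends of peaks were used as the authors deposited them. The score column is the authors' own score (smallest 13.01, the value of -10 log10 of a p of 0.05; its scale is not stated) and served only to describe or filter within a list. Replicates share their control library, so a flaw of it would touch both.

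Coverage was the percent of bases of a region under peaks of chromosomes 1 to 19, X and Y. Gene spans were those of 21887 protein-coding genes of RefSeq GRCm38.p6; strand was taken from the RefSeq promoter table (17492 genes), and exons were not used. A domain's gene was the one holding most of its bases. KO inside against outside the domains was tested by an exact sign-flip permutation test over 2 libraries. KO against WT over the domains got no test, since WT widths chose them. Interval steps were tested on simulated peaks. Computation used matplotlib 3.10.9 for drawing, scipy 1.17.1, pandas 2.3.3 and numpy 2.4.6 under Python 3.11.15.

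The domains and gene lists were chosen with earlier results of these data known. Genes named were those of the 10 widest domains, the 10 with the most domain bases, the 5 of at least 20 kb with the largest share in domains, the 10 domains with the highest KO coverage, those next to the width threshold, the 2 per list with the most domain bases, and Setd2; 1 gene that this rule names is not reported here. Alternatives varied the width minimum, the overlap, the control, the libraries, the chromosomes and the KO peaks used.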

Additional observations from a re-analysis of the deposited data

How the results depend on the processing

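Over the 13 alternatives run, KO coverage of the domains stayed above that of the rest of the genome, with ratios between 2.22 and 4.999, and over 13 alternatives Zfp domains stayed above other domains, with ratios between 3.33 (at the 10000-bp minimum, where 2 of 18 domains are Zfp) and 6.72. No value reversed. The number of domains depended on the width minimum, with 4526 at 3000 bp and 18 at 10000 bp, and lay between 1696 and 2239 when a single WT library defined them. KO coverage was 6.92% at 3000 bp, 15.2% at 10000 bp, 6.43% with lists against IgG, 4.10% with KO peaks at or above the median score and 9.38% with KO peaks within 1 kb merged; leaving out a library gave 6.71% to 8.74%. The share of domains with no KO base was 43.7% at 3000 bp, 16.7% at 10000 bp, 40.3% against IgG, 56.4% with the stronger KO peaks and 57.4% where at least 10% coverage was asked for; leaving out a library gave 32.0% to 51.3%. Protein-coding bases were 94.5% at 3000 bp and 71.9% at 10000 bp, with 93.9% to 94.7% when a WT library was left out, and 96.9% of domains had at least 50% of their bases on 1 gene. The cause of these shifts was not tested, except that fewer KO peaks or libraries leave more domains empty by construction. Chosen after seeing the data, leaving out the Zfp domains gave KO coverage of 6.93%, and leaving out 9 domains in the stretches of chromosomes 8 and 17 that hold like-named gene copies gave 7.87%. Depth is unknown, so a domain without a KO peak may hold signal below the caller's limit. Between KO and WT libraries no paired analysis was possible because the WT widths chose the domains and KO against WT got no test. The sign-flip tests compared regions within each KO library.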
